A study of Saccharomyces cerevisiae with 12 samples.

Results

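The PAU, COS and YRF1 genes are large repeated gene families of budding yeast (Saccharomyces cerevisiae), and most of them lie near the telomeres. They were taken as the probe sets of the array whose annotated genes all carry a PAU, COS or YRF1 name. This gave 47 of 9275 non-control probe sets: 22 for PAU, 23 for COS and 2 for YRF1. They name 44 of 5923 genes that the array annotation names, 24 PAU, 12 COS and 8 YRF1 genes. Of the 47 probe sets 26 name 1 gene and 21 name several, up to 8 in 1 probe set. Another 22 probe sets name YRF1 genes together with other genes of the Y-prime element, the repeated unit of many chromosome ends. Those lie outside the rule and are not members.

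Total RNA was hybridised to 12 arrays of 1 colour, 3 in each of 4 groups. The rap1 series holds a temperature-sensitive (ts) rap1 mutant and a matched wild type, and the abf1 series holds an abf1 ts mutant and a wild type of its own. Per the labels all strains, wild types included, were moved from 25 C to 37 C for 1 h, where the ts proteins no longer bind DNA. The medium was YPD, which the labels of the abf1 wild type leave out. Allele names and strain background: not given in the sources used here. No label says that the arrays of a group were separate cultures. The p-values therefore cover the spread among these arrays only, and that spread may be technical.

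Rap1 and Abf1 are essential proteins that bind many promoters, and Rap1 also coats the telomere repeats. There it recruits the Sir silencing proteins and the length regulators Rif1 and Rif2, so genes near chromosome ends can be repressed in a manner that depends on it. The PAU (seripauperin) genes encode small cell wall mannoproteins known for induction in anaerobic growth, in the cold and in wine fermentation. COS genes of the repeated family encode membrane proteins that help to send other membrane proteins to the vacuole for breakdown. YRF1 genes encode a helicase carried by Y-prime elements, known for expression in cells that have lost telomerase. Setting each mutant against its matched wild type asks what happens to these RNAs after loss of the factor's binding.

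By the order of protein-coding genes in the RefSeq assembly R64, 19 of 24 PAU genes, 11 of 12 COS genes and 8 of 8 YRF1 genes were among the 10 outermost genes of their chromosome arm. PAU genes were found on 16 chromosomes. The outermost gene of an arm was a YRF1 gene in 6 cases, a COS gene in 4 and a PAU gene in 3. The members farthest in were PAU23 and COS111, each the 100th gene from its end, PAU5 (46th), PAU17 (39th), PAU2 (30th) and PAU7 (15th). PAU coding lengths had a median of 363 bases, COS coding lengths 1146 and YRF1 coding lengths 5391. COS111 had 2775 bases, where the other COS genes had 1125 to 1224. It is a member by its name alone, and its kinship to the other COS genes was not tested. The sequences of the genes and of the probes were not used here.

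Probe sets that name several genes may carry signal of more than 1 of them. Among the 47 members 30 are of the type marked "_f", which the array's maker gives to probe sets shared by a gene family. Of the PAU probe sets 21 of 22 were of that type, so even a probe set that names 1 PAU gene may include signal of its relatives. The members are therefore not independent of each other. A level on these arrays also cannot tell fewer expressing cells from less RNA per cell.

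Median signals of the arrays lay between 390.4, in wild-type array 2 of the rap1 series, and 598.3. In rap1 ts the ratio of 3' to 5' signal of the ACT1 (actin) control had a geometric mean of 30.1, against 6.75 in the wild type, and the groups did not overlap (2-sided exact permutation p = 0.1, the smallest possible). In the abf1 series these means were 7.93 in ts and 12.02 in the wild type (exact p = 0.6). The SPT15 control had 15.9 in rap1 ts and 4.98 in its wild type, also without overlap (2-sided exact permutation p = 0.1). The SRB4 control had 228 and 46.4, with overlap (2-sided exact permutation p = 0.2). In the abf1 series SPT15 had 6.46 in ts and 5.70 in the wild type, and SRB4 had 122.9 and 177.3. The part of these ratios in the results below was not tested. RAP1 itself, whose mutation is in the protein, had a signal of 897 ± 273 (SD, n = 3) in rap1 ts and 944.5 ± 126.5 in its wild type (log2 fold change -0.12, limma adjusted p = 0.85). ABF1 had 3176 ± 1427 in abf1 ts and 1009 ± 410 in its wild type (log2 fold change 1.61, limma adjusted p = 1.00, and 0.13 with the replicate block).

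Tests were run with limma on log2(signal + 13) over 5465 gene-named probe sets whose mean log2 value was at least 7.23. A probe set was called at an adjusted p under 0.05. Of the members 34 passed this filter: 21 PAU and 13 COS probe sets, and neither YRF1 probe set. Arrays that carry the same replicate number within a series deviated together, so each result was also fitted with that number as a block. For the members tested, the map of log2 deviations by array shows both the group differences and this dependence on the number.

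**Figure D1:**
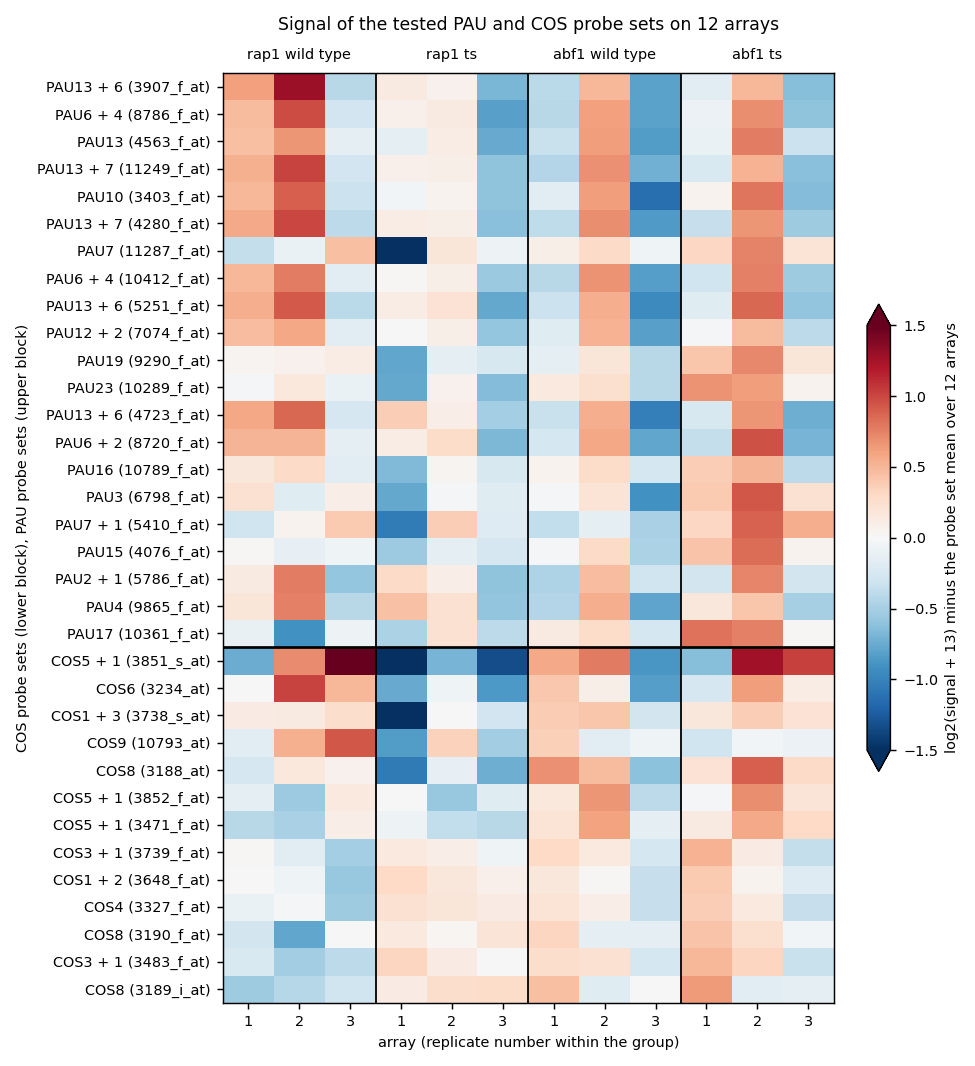
Signal of the 21 PAU (upper block) and 13 COS (lower block) probe sets that passed the filter, on 12 arrays in 4 groups, as log2(signal + 13) minus the probe set's mean over all arrays; labels give the first gene, the number of other genes and the probe set. PAU signals are high in the number 2 arrays of the 4 groups for most probe sets. In the COS block most rows are low in rap1 ts or low in its wild type. The rows 3471_f_at and 3852_f_at have lower means in both rap1 groups than in both abf1 groups.

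No PAU probe set passed the test in rap1 ts without the block, yet the family lay on 1 side. Of 21 PAU probe sets tested 20 had a lower mean in rap1 ts than in its wild type, with a median log2 fold change of -0.46, where all 5465 probe sets had a median of 0.06. The exception was PAU17, at 0.15. In this comparison 0.567% of all probe sets were called without the block, and 0 of the 34 members. At an unadjusted p under 0.05 these were 21.6% of all probe sets and 4 of 34 members, all COS. With the block 22.7% of all probe sets were called (13% higher and 9.72% lower) and 6 of 34 members, 2 PAU lower, 2 COS lower and 2 COS higher, a share below that background. With any 1 of the 3 array pairs left out, the block called 0 to 2 members and 11.6% to 17.5% of all probe sets. With 1 block over all 12 arrays it was 18.7% of all probe sets and 2 members. All 3 pairs of arrays were lower for 15 of 21 PAU probe sets, against 22.4% of all probe sets tested.

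The probe set of largest PAU difference, 3907_f_at, names PAU13, PAU14, PAU1, PAU11, PAU9, PAU10 and PAU8. Its signals were 4108, 6543 and 2010 in wild-type arrays 1, 2 and 3 and 2955, 2805 and 1664 in ts arrays 1, 2 and 3. The ts array of each number was below the wild-type array of that number, while the groups overlapped. The mean of 3 arrays was 4220 ± 2269 (SD) in the wild type and 2475 ± 706 in ts (difference of -0.65 on the log2 scale, SE 0.46, limma adjusted p = 0.408), and it fell with the block (blocked SE 0.21, limma adjusted p = 0.0486).

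The probe set that names PAU13 alone, 4563_f_at, had signals of 2187, 2539 and 1454 in the wild type and 1462, 1730 and 945.1 in rap1 ts. Each pair moved by nearly the same amount, -0.58, -0.55 and -0.61 on the log2 scale. The fitted change was -0.58 (SE 0.41, limma adjusted p = 0.413), and the probe set fell with the block (blocked SE 0.18, limma adjusted p = 0.0459). It is of the "_f" type, so the fall cannot be assigned to PAU13 alone. Neither of these PAU calls held with 1 block over all 12 arrays (limma adjusted p = 0.0585 and 0.0735).

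The probe set for PAU6, PAU14, PAU20, PAU1 and PAU18 that moved most, 8786_f_at, had 1669, 2357 and 978.3 in the wild type and 1261, 1315 and 674.6 in rap1 ts (log2 fold change -0.59, limma adjusted p = 0.463, and 0.0545 with the block). A second probe set for the same genes, 10412_f_at, had a log2 fold change of -0.52. The 2 probe sets for PAU13, PAU14, PAU1, PAU12, PAU11, PAU9, PAU10 and PAU8, 4280_f_at and 11249_f_at, had -0.54 and -0.56. Probe sets that name the same PAU genes thus gave like values in rap1 ts.

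PAU19 and PAU15 had groups that did not overlap, the only PAU cases. PAU19 was measured at 340.9, 347.1 and 358.2 in the wild type and at 187.8, 297.9 and 278.6 in rap1 ts (log2 fold change -0.46 with an SE of 0.30, limma adjusted p = 0.381). The wild-type arrays were nearly equal and every ts array was lower. PAU15 went from 338.9 ± 17.0 to 284.9 ± 42.4 (log2 fold change -0.25, limma adjusted p = 0.654). Lower groups without overlap made up 10.4% of all probe sets, and 2 of 21 for PAU.

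The pairs did not share a direction for 6 of 21 PAU probe sets, which include those of PAU17, PAU7 and PAU3. PAU17 had 355.1, 197.6 and 364.2 in the wild type and 271.3, 450.9 and 290.1 in rap1 ts, so that pair 2 was at 1.14 and pairs 1 and 3 at -0.37 and -0.32 on the log2 scale (limma adjusted p = 0.829). PAU7 (11287_f_at) had pairs of -1.32, 0.28 and -0.52, with ts array 1 at 88.0, the lowest signal of any PAU probe set tested. PAU23, the PAU gene farthest from an end, had -0.46, and its 3 pairs were all lower, at -0.74, -0.09 and -0.55.

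The order of arrays within groups followed the replicate number for PAU. Within the abf1 wild type, array 2 had the highest signal in 21 of 21 PAU probe sets and array 3 the lowest in 20. In abf1 ts array 2 was highest in 19 and array 3 lowest in 20. The rap1 groups were similar, with array 2 highest in 14 of 21 in the wild type and 16 in ts, and array 3 lowest in 15 and 13. Over all 5465 probe sets array 2 was highest in only 21.8% to 29.6% in the 4 groups. In the abf1 wild type the highest array exceeded the lowest 2.53-fold at the median PAU probe set and 1.53-fold at the median of all probe sets. The same medians were 2.03 and 1.68 in abf1 ts, 1.84 and 1.68 in the rap1 wild type and 1.78 and 1.71 in rap1 ts. For the 10 PAU probe sets of 1 gene they were 1.56 in the rap1 wild type and 1.70 in rap1 ts, below those of all probe sets. For 3403_f_at, the probe set of PAU10, the abf1 wild-type arrays 1, 2 and 3 read 1265, 2196 and 644.7. The ratio of the highest to the lowest of these replicates exceeded the ratio of mutant to wild-type means for any PAU probe set tested.

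**Figure D2:**
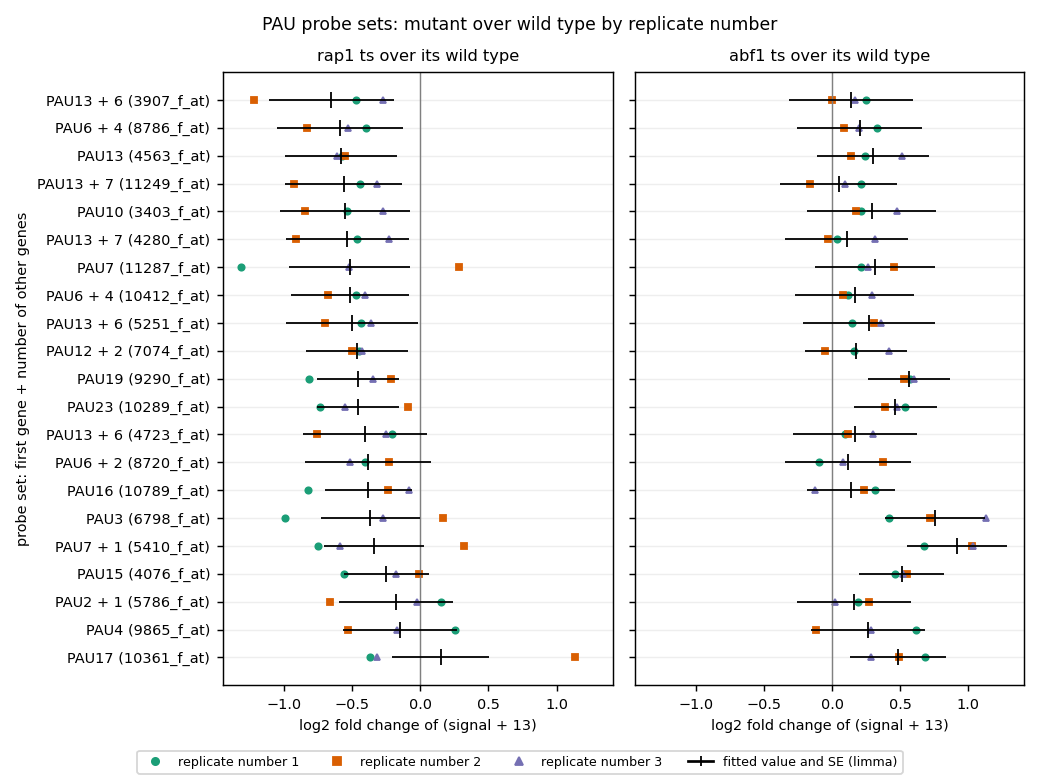
Log2 fold change of (signal + 13) for the 21 PAU probe sets tested, rap1 ts over its wild type (left) and abf1 ts over its wild type (right); coloured points are the array pairs of replicate number 1, 2 and 3, and black bars are the limma value without a block with its SE. Fitted values lie left of 0 for 20 of 21 probe sets in rap1 ts and right of 0 for 21 of 21 in abf1 ts.

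In abf1 ts the PAU family lay on the other side. All 21 probe sets tested had higher means than in the abf1 wild type, with a median log2 fold change of 0.26 (-0.01 for all 5465). None was called with or without the block, where 0.0366% and 0.0915% of all probe sets were called. At an unadjusted p under 0.05 there was 1 PAU probe set, against 2.85% of all probe sets. All 3 pairs were higher for 15 of 21 PAU probe sets, against 16.9% of all. Probe sets of the "_f" type outside these families had a median of 0.18 in this comparison, and 154 of those 223 were higher. Without wild-type array 3 or without ts array 2 the PAU median was -0.03 or -0.05, with 8 of 21 probe sets higher in either case. Those fits had no block and left the replicate numbers unbalanced. Wild-type array 3 was the lowest of its group in 20 of 21 PAU probe sets and ts array 2 the highest in 19. Leaving out either therefore lowers the difference for those probe sets.

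The largest PAU differences in abf1 ts were at lower-signal members. The probe set of PAU7 and PAU5, 5410_f_at, had 307.2, 360.9 and 283.1 in the abf1 wild type and 499.4, 750.6 and 593.8 in abf1 ts. All ts arrays were above all wild-type arrays, and the mean went from 317.1 ± 39.8 to 614.6 ± 126.9 (log2 fold change 0.92 with an SE of 0.37, limma adjusted p = 1.00, and 0.3 with the block). PAU3 had 275.1, 325.7 and 143.3 in the wild type and 372.6, 545.2 and 329.8 in abf1 ts, again without overlap, which held for 2 of 21 PAU probe sets and 2.82% of all (log2 fold change 0.76 with an SE of 0.37, limma adjusted p = 1.00). PAU19 had 0.57, PAU15 0.51, PAU17 0.48 and PAU23 0.46. The 5 probe sets that name 7 or 8 PAU genes had 0.05 to 0.27.

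The direct test of whether the 2 mutants differed gave no PAU call. The rap1 effect minus the abf1 effect was below 0 for 21 of 21 PAU probe sets, with a median of -0.76 (0.08 for all 5465). Outside the families 143 of 223 "_f" probe sets were below 0, and their median was -0.27. Its lowest value was -1.25 for the PAU7 and PAU5 probe set (SE 0.52, limma adjusted p = 0.396, and 0.0672 with the block). In this test 0% of all probe sets were called without the block, 6.79% with it, and 0 of 34 members in either fit. At an unadjusted p under 0.05 there were 3 PAU and 2 COS probe sets, against 12% of all probe sets.

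Between the rap1 and abf1 wild types, which had the same temperature shift, no PAU probe set passed the test or had groups without overlap. PAU means were higher in the rap1 wild type for 19 of 21 probe sets, with a median log2 difference of 0.44 (-0.09 for all 5465). The "_f" probe sets outside the families had a median of 0.12, with 154 of 223 higher. No member was called, nor was any other probe set (0%), with or without a block over the 12 arrays, and 3.29% of all probe sets had an unadjusted p under 0.05, but no member. The highest of the 4 group means was that of the rap1 wild type for 13 of 21 PAU probe sets and that of abf1 ts for 8, and the lowest was that of rap1 ts for 13. Without abf1 wild-type array 3 the median difference between the wild types was 0.13. That array was the lowest of its group in 20 of 21 PAU probe sets. Leaving it out without a block therefore lowers the difference for those.

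The COS family did not move as 1 group in rap1 ts. Of 13 COS probe sets tested 6 were higher and 7 lower, with a median log2 fold change of -0.02 and a range from -1.73 to 0.64. By type, the 8 probe sets marked "_f" or "_i" (a family type and a type with fewer usable probes) had a median of 0.39, with 6 higher. The 5 others had a median of -0.78, and all 5 were lower. This split was made after the values were seen and was not tested. For all 8 "_f" or "_i" probe sets the rap1 wild type also lay below the abf1 wild type. The "_f" probe sets outside these families had a median of -0.03. Groups did not overlap for 5 COS probe sets in the higher and 2 in the lower direction, where the shares of all probe sets were 15.1% and 10.4%.

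**Figure D3:**
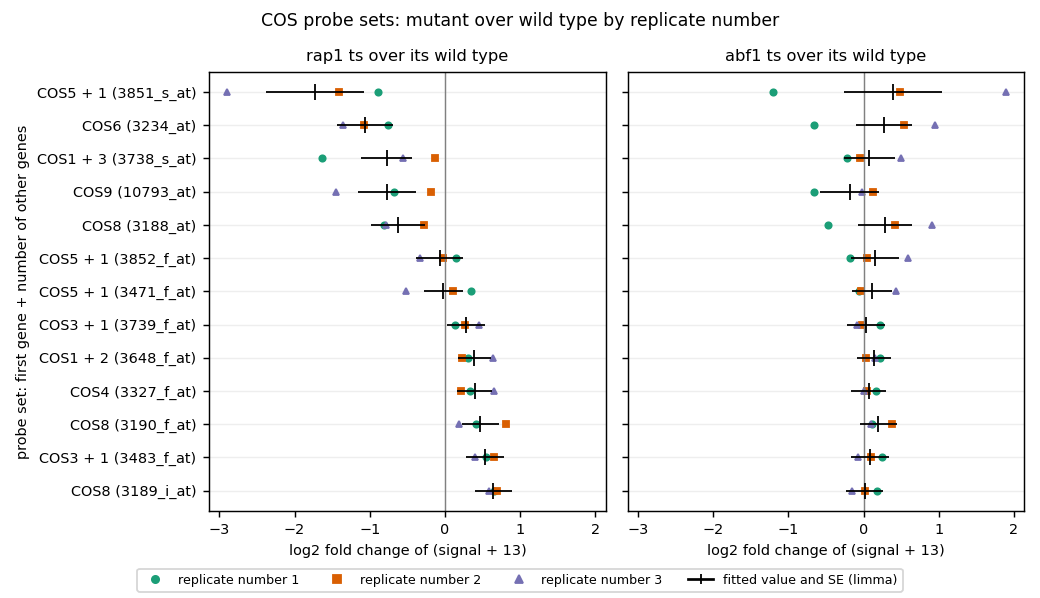
Log2 fold change of (signal + 13) for the 13 COS probe sets tested, rap1 ts over its wild type (left) and abf1 ts over its wild type (right); coloured points are the array pairs of replicate number 1, 2 and 3, and black bars are the limma value without a block with its SE. In rap1 ts the values run from -1.73 for 3851_s_at to 0.64 for 3189_i_at with 3 probe sets of COS8 on both sides of 0, while in abf1 ts all fitted values lie between -0.19 and 0.39.

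The 3 probe sets of COS8 disagreed. By 3189_i_at, COS8 had 5018, 5405 and 5903 in the rap1 wild type and 7907, 8769 and 8830 in rap1 ts. Every ts array was above every wild-type array, and the pairs were alike at 0.66, 0.70 and 0.58. The mean went from 5442 ± 444 to 8502 ± 516 (log2 fold change 0.64 with an SE of 0.25, limma adjusted p = 0.171), and this probe set rose with the block (blocked SE 0.15, limma adjusted p = 0.0182). By 3190_f_at COS8 went from 2922 ± 772 to 3952 ± 220, also without overlap (log2 fold change 0.47, limma adjusted p = 0.285). By 3188_at it had 1604, 2137 and 1996 in the wild type and 909.9, 1756 and 1148 in rap1 ts, which is lower in all 3 pairs (log2 fold change -0.63 with an SE of 0.36, limma adjusted p = 0.319). The direction thus depended on the probe set. Of the 3, 3190_f_at is of the family type and may include signal of other COS genes.

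COS6 by its own probe set, 3234_at, had 2826, 5674 and 3989 in the rap1 wild type and 1663, 2689 and 1549 in rap1 ts. The groups did not overlap, and the pairs were -0.76, -1.07 and -1.36. The mean went from 4163 ± 1432 to 1967 ± 628 (log2 fold change -1.06 with an SE of 0.38, limma adjusted p = 0.147). COS6 fell with the block within series (blocked SE 0.28, limma adjusted p = 0.0254) and with 1 block over all arrays (limma adjusted p = 0.0276). The probe set that COS6 shares with COS1 and COS4, 3648_f_at, had 11363, 10894 and 7646 in the wild type and 13991, 12739 and 11949 in rap1 ts, higher without overlap (log2 fold change 0.39, limma adjusted p = 0.319).

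COS5 and COS7 share 3 probe sets. By 3851_s_at the pair of genes had 132.8, 386.4 and 709.5 in the wild type and 65.8, 137.7 and 83.9 in rap1 ts. The wild-type arrays were far apart, and the lowest of them was below the highest ts array. The log2 fold change of -1.73 was the largest of any member (SE 0.65, limma adjusted p = 0.166), and this probe set fell with either block (blocked SE 0.54, limma adjusted p = 0.0438 within series, and 0.048 over all arrays). By 3471_f_at and 3852_f_at the same genes had log2 fold changes of -0.02 and -0.07.

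COS2 and COS3 were read by 2 shared probe sets. By 3483_f_at they had 3985, 3255 and 3559 in the wild type and 5842, 5101 and 4678 in rap1 ts, with all ts arrays higher. The mean went from 3600 ± 367 to 5207 ± 589 (log2 fold change 0.53 with an SE of 0.25, limma adjusted p = 0.237), and it rose with the block within series (limma adjusted p = 0.0404) but not with 1 block over all arrays (0.0657). By 3739_f_at the log2 fold change was 0.28. The probe set shared by COS1, COS2, COS3 and COS4, 3738_s_at, read 3236, 3270 and 3577 in the wild type and 1031, 2969 and 2426 in rap1 ts, lower without overlap (log2 fold change -0.78 with an SE of 0.34, limma adjusted p = 0.215, and 0.0647 with the block). The probe set that names COS4 alone, 3327_f_at, read higher, from 7516 ± 1341 to 9792 ± 325 (log2 fold change 0.40, limma adjusted p = 0.329). It is of the "_f" type and may include signal of other COS genes.

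COS9 by 10793_at had 158.2, 264.6 and 353.2 in the wild type and 94.0, 231.2 and 120.5 in rap1 ts. It was lower in all 3 pairs, with groups that overlapped (log2 fold change -0.77 with an SE of 0.39, limma adjusted p = 0.261).

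In abf1 ts COS values were close to those of the abf1 wild type. Of the 13 probe sets 12 had higher means, with a median log2 fold change of 0.11, and 0 were called with or without the block. The range was from -0.19 for COS9 to 0.39 for the COS5 and COS7 probe set 3851_s_at, whose pairs ran from -1.21 to 1.90. COS8 by 3188_at had 0.29 and COS6 had 0.27, each with pair 1 below 0 and pairs 2 and 3 above 0. Without abf1 wild-type array 3 the COS median was -0.10, with 1 of 13 higher. That array was the lowest of its group in 11 of 13 COS probe sets. Leaving it out without a block therefore lowers the difference for those. COS6, which differed most between the mutants among the tested probe sets of 1 gene, had a difference of effects of -1.34 (SE 0.53, limma adjusted p = 0.39, and 0.065 with the block).

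Between the wild types, COS means were lower in the rap1 series for 10 of 13 probe sets, with a median of -0.20. By type, the 8 marked "_f" or "_i" were all lower, with a median of -0.34. Of the 5 others 3 were higher, with a median of 0.35. These medians had signs opposite to those of rap1 ts against its wild type, and the split was not tested. Both comparisons use the same rap1 wild-type arrays, on opposite sides, so the opposite signs are not independent of each other. COS8 by 3189_i_at had the lowest value, -0.52, with rap1 wild-type arrays at 5018 to 5903 and abf1 wild-type arrays at 6427 to 9990, and the groups did not overlap (6.97% of all probe sets were lower without overlap). In rap1 ts, at 7907 to 8830, this probe set lay within the range of the abf1 wild type. Its mean was lowest of the 4 groups in the rap1 wild type.

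The remaining COS probe sets were too dim to test. All 10 had at most 559 on any array, and they include all 4 probe sets of COS10, 2 of COS9, 2 of COS7 and those of COS12 and COS111. COS111, a member by name that lies far from a chromosome end, read between 2.8 and 33.1. COS12 read between 0.4 and 10.7. COS10 differed by probe set: 3625_at read 56.1 to 115 over the 12 arrays, 3626_i_at 4.3 to 256.3, and 3628_f_at at most 1.2. The 1 PAU probe set that was too dim, for PAU22, PAU19 and PAU21, read 49.1 to 152.6.

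The YRF1 helicase genes gave low signals by both of their probe sets, which were left out of the tests by the filter. The probe set of all 8 YRF1 genes, 3734_s_at, read 50.1, 161.8 and 67.9 in the rap1 wild type and 87.3, 59.6 and 30.2 in rap1 ts. That of 7 of them, 3736_s_at, read 62.7, 41.8 and 28.1 in the rap1 wild type and 144.3, 83.9 and 68.6 in rap1 ts. All ts arrays were higher by the second probe set, with means of 44.2 ± 17.4 and 98.9 ± 40.0, while by the first the ts mean was lower, 59.0 ± 28.6 against 93.3 ± 60.0. Log2 fold changes were -0.50 and 0.96, so these probe sets gave no common direction for the same genes. In the abf1 series the means of 3734_s_at were 60.5 ± 30.7 in the wild type and 72.3 ± 52.6 in ts, and those of 3736_s_at were 59.0 ± 17.8 and 60.7 ± 29.4. Those groups overlapped.

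**Figure D4:**
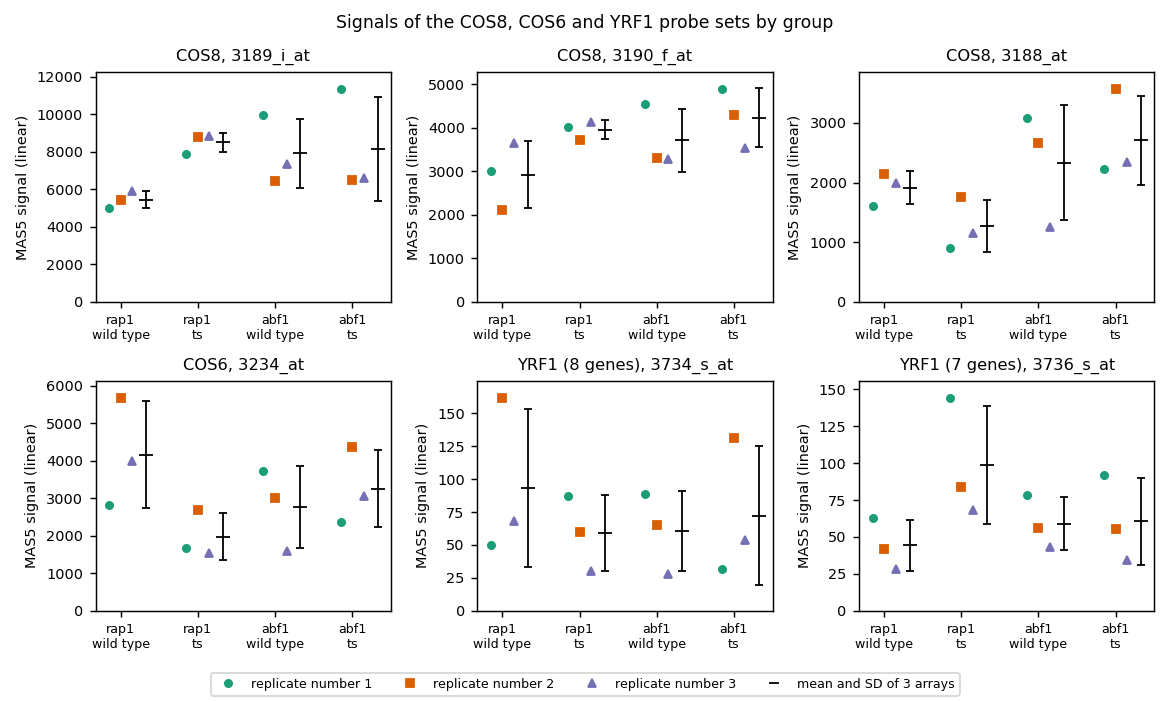
MAS5 signal on a linear scale, by group, for the 3 probe sets of COS8, that of COS6 and both of YRF1; points are arrays, with colour and shape for the replicate number, and black bars are the mean and SD of 3 arrays. COS8 is higher in rap1 ts than in its wild type by 3189_i_at and 3190_f_at and lower by 3188_at, and both YRF1 panels stay at or below 161.8.

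Relatives and regulators of these families were read from lists written with earlier results of these data known. The DAN and TIR genes encode cell wall mannoproteins that, like PAU, are induced without oxygen. All 5 of their tested probe sets were lower in rap1 ts, with a median log2 fold change of -0.91, and 4 of 5 fell with the block, against 9.72% of all probe sets. TIR1 had the largest difference, -2.12 (limma adjusted p = 0.355, and 0.0306 with the block). Its signals were 2633, 25364 and 768 in the rap1 wild type and 1137, 1137 and 470 in rap1 ts, so wild-type array 2 alone set most of the mean. TIR2 had -0.91 and TIR3 -0.91 (with the block, limma adjusted p = 0.0283 and 0.0299). Wild-type array 2 was again the highest of its group, at 1920 for TIR2 against 598 and 778, and 2016 for TIR3 against 955 and 697. The groups overlapped for both genes. In abf1 ts this list had a median of 0.01.

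Among regulators of PAU, DAN and TIR genes, 8 of 11 tested probe sets were lower in rap1 ts and 1 fell with the block, close to the 9.72% of all probe sets. That was TUP1, a general corepressor gene, from 1850 ± 379 to 1069 ± 458 (log2 fold change -0.87, limma adjusted p = 0.255, and 0.044 with the block). Of 13 tested probe sets for 12 telomeric silencing genes 10 were higher (median 0.21), and 4 rose and 1 fell with the block, against 13% and 9.72% of all probe sets. RFM1, which tethers the deacetylase Hst1, had 1.21 and SIR1 1.03 (with the block, limma adjusted p = 0.0111 and 0.022). For SIR1 the rap1 wild type was also below the abf1 wild type, with means of 135.9 and 277.0 (log2 difference -0.99, limma adjusted p = 0.972). A second SIR1 probe set, too dim to test, had -0.12 in rap1 ts. ESC1, which anchors silent chromatin at the nuclear edge, was called in both directions, with 0.84 and -1.06 from its 2 tested probe sets. Of 9 probe sets for telomerase and the telomere cap, 1 rose with the block, close to the 13% of all probe sets. It was for EST3, a telomerase subunit gene, at 0.76, while the other EST3 probe set had 0.18 (limma adjusted p = 0.682 with the block).

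The DUP240 genes, a family related to COS, had 3 of 4 tested probe sets lower in rap1 ts (median -0.57), and 0 were called. Among other subtelomeric families 10 of 13 tested probe sets, for 10 genes, were lower (median -0.30), and 4 fell and 1 rose with the block, against 9.72% and 13% of all probe sets. IMD2, an IMP dehydrogenase gene, gave 3 of the 4, at -2.45, -1.18 and -0.95 (with the block, limma adjusted p = 0.00668, 0.0121 and 0.0197). These 3 are of the "_f" type and name the same gene, so they are not independent and may include signal of its relatives. Without the block no probe set of these lists was called in rap1 ts, and none was called in abf1 ts with or without it.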

How the data were processed

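The authors deposited 1 linear intensity per probe set and array, from MAS5 per the submitters' processing notes. MAS5 version and settings: not given in the sources used here. Deposited signals had a 2% trimmed mean between 1497 and 1500 on every array, so they had been scaled, and no 2 arrays were copies. Of 9335 probe sets 60 were controls, 6504 named 1 gene, 328 several and 2443 were unnamed here. Names come from the platform annotation, and 0 differed from R64.

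Every gene-named probe set was a feature of its own. limma 3.58.1 in R 4.3.3 fitted 4 group means to log2(signal + 13), with a variance trend and Benjamini-Hochberg adjustment. The offset of 13 is the 10th percentile of non-control values and understates folds of dim genes. Probe sets under the 20th percentile of mean log2 were left out. The number of arrays limits the precision. The fits were tested on simulated data.

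Equal replicate numbers were taken as pairs, from the data and not from the labels: deviations from group means correlated at 0.25 to 0.809 within series, above the minimum of 0.1. Members, lists and alternatives (scaling, offset, filter, probe set choice, block, arrays left out) were chosen with earlier results of these data known. Members named were those called in either fit, the 2 of largest rise and fall per family and mutant, the YRF1 probe sets and those of extreme signal. Others were named after their values were seen, to compare probe sets of 1 gene. A motif search and a protein comparison were planned and not run, since no sequence was used here.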

Additional observations from a re-analysis of the deposited data

Results flagged for a closer look

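The rap1 and abf1 effects had opposite signs in every array pair for 10 of 34 tested members, all of them PAU probe sets, against 9.44% of all probe sets tested. These 10 are not independent, since all are of the "_f" type and several name the same genes. Probe sets of that type outside the families leaned the same way in the difference, with a median of -0.27 and 143 of 223 below 0. Their share with opposite pairs was not counted. The test of the difference did not pass for any of the 10 (limma adjusted p from 0.396 to 0.708, and from 0.0641 to 0.188 with the block). The rap1 effect minus the abf1 effect, on the log2 scale, was -1.03 for PAU19, -0.92 for PAU23, -0.88 for PAU13, -0.84 for PAU10 and -0.76 for PAU15. For probe sets of several PAU genes it was -0.79 (3907_f_at), -0.79 (8786_f_at), -0.77 (5251_f_at), -0.68 (10412_f_at) and -0.58 (4723_f_at).

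Among the 22 Y-prime probe sets that name YRF1 genes with other Y-prime genes, 9 passed the filter, and 4 of these lay higher in rap1 ts than in its wild type without overlap, against 15.1% of all probe sets. The probe set 3791_s_at, for 20 genes, read 183.8, 148.1 and 128.6 in the wild type and 888.6, 456.6 and 394.1 in rap1 ts (log2 fold change 1.75, limma adjusted p = 0.111, and 0.00858 with the block). The others had 1.43 (9800_s_at, limma adjusted p = 0.0199 with the block), 0.57 (3542_f_at, 0.0301 with the block) and 0.26 (3735_f_at, 0.222 with the block). By contrast 3790_s_at fell with the block (log2 fold change -1.97, limma adjusted p = 0.0232), so probe sets of the Y-prime element did not share a direction. The rap1 wild type was also below the abf1 wild type, with a log2 difference of -1.05 for 3791_s_at and -0.30 for 3542_f_at, both without overlap, -1.24 for 9800_s_at and -0.17 for 3735_f_at (limma adjusted p = 0.972 for each). The mean of 9800_s_at was 1077 ± 324 in rap1 ts and 1040 ± 584 in the abf1 wild type.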

How the results depend on the processing

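The number of members called in rap1 ts was 0 without a block, 6 with the replicate block and 2 with the block over all 12 arrays. With the replicate block it was 0 to 2 when 1 pair was left out (11.6% to 17.5% of all probe sets), and for the difference of the mutants 0 to 1 (0% to 2.71%). It stayed at 0 under the other scalings, offsets, filters, probe set choices and arrays left out without a block, and in the abf1 and wild-type comparisons under every setting run. The block within series could not be fitted between the wild types. The rap1 PAU median stayed below 0 in every setting for which it was taken (-0.64 to -0.28), and the abf1 PAU median ran from -0.05 to 0.59. Family medians were not taken for fits with a block, of a single series or without a variance trend. Leaving out shared probe types left no PAU probe set, so the PAU medians were not tried there. The rap1 COS median was 0.28 with the 50th percentile filter, 0.28 with the highest probe set per gene and -0.84 without shared probe types, each with fewer probe sets. The COS median between wild types was -0.002 with no filter and 0.21 without shared probe types, and it ran from -0.44 to -0.10 with single arrays left out. The abf1 COS median ran from -0.10 to 0.26 with single arrays left out. Without abf1 wild-type array 3, 13 of 21 PAU and 12 of 13 COS probe sets were lower in abf1 ts, and without ts array 2, 13 of 21 PAU. Wild-type array 3 was the lowest of its group in 20 of 21 PAU and 11 of 13 COS probe sets. Array 2 of abf1 ts was the highest in 19 of 21 PAU. These fits had no block and left the replicate numbers unbalanced, which lowers the abf1 difference for those probe sets. Among the members called with the block or of largest difference, those that changed sign, none of them called, were PAU17 in rap1 ts and, in abf1 ts, COS9, COS8 by 3188_at and the COS5 and COS7 probe set 3851_s_at. With single arrays left out they ran from -0.12 to 0.30 for PAU17, from -0.11 to 0.54 for COS8 and from -0.12 to 0.98 for 3851_s_at. With the replicate block and 1 pair left out they ran from -0.34 to 0.41 for PAU17, from -0.34 to 0.053 for COS9, from -0.025 to 0.66 for COS8 and from -0.37 to 1.19 for 3851_s_at. Probe sets that share targets and dim signals limit what these arrays can resolve.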
